A study of Caenorhabditis elegans with 32 samples.

Results

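Whole-worm total RNA of Caenorhabditis elegans fed dimt-1 RNAi bacteria was compared with that of worms fed empty vector (EV) control bacteria, in 8 libraries, 4 per group, of the 32 samples of the series. The libraries were chosen by their labels alone, as the total RNA libraries of the strain WBM1339, in which muscle ribosomes carry a FLAG tag. All worms of both groups were hatched from bleached eggs of mothers kept on OP50 bacteria, went onto dimt-1 RNAi or EV plates as synchronized L1 larvae, and were taken at the young adult stage. Polyadenylated RNA of the whole lysate was sequenced, before any ribosome was pulled down. The sample titles name muscle whereas the source field names lysates of whole worms, and markers of the germline, intestine and neurons were present in all 8 libraries. The labels number the replicates of each group 1 to 4 and call them biological replicates. The promoter behind the muscle tag and the age in hours at collection are not given in the sources used here.

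DIMT-1 is the worm homolog of the enzymes that place 2 methyl groups on each of a pair of neighbouring adenosines near the 3′ end of 18S rRNA, a mark known as m6,2A. The mark is made while the small ribosomal subunit is assembled. RNAi by feeding lowers a messenger RNA in the worm through double-stranded RNA made by the bacteria it eats. A young adult hermaphrodite has finished its last molt and the making of sperm, its germline has turned to oocytes, and its intestine makes yolk proteins (vitellogenins) for them. Major sperm proteins, cuticle collagens and vitellogenins are therefore stage-dependent transcripts in this animal.

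On the first principal component (37.1% of the variance) dimt-1 RNAi replicates 1, 2 and 4 lay at 85.3, 37.0 and 74.7. Dimt-1 RNAi replicate 3 lay at -45.5, with the EV libraries at -47.4 to -31.8. On the second component (14.1%) EV replicate 4 lay at -78.6 and the other libraries at -3.28 to 32.5. The values of dimt-1 RNAi replicate 3 are given apart for the genes described in detail. Each result comes from 2 fits, one of all 8 libraries and one of the 7 libraries without dimt-1 RNAi replicate 3. Because that library was set aside on its values, the fit of 7 is a description beside the fit of 8, and its p-values do not allow for that choice. Levels are CPM, counts scaled to the library total with TMM factors. Fold changes are log2 of dimt-1 RNAi over EV. A gene was called, and is said to have risen or fallen, only where its adjusted p in the fit of 7 was under 0.05. Total counts were 39760840 to 47075077 in the dimt-1 RNAi libraries and 37400849 to 48432613 in the EV libraries.

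Without dimt-1 RNAi replicate 3, sperm genes and cuticle collagens held the most calls upward on dimt-1 RNAi of the lists examined: 27 of 31 major sperm protein genes and 65 of 136 collagens rose, beside 6.99% of all genes tested. All 6 vitellogenins and 26 of 33 proteasome subunits fell, beside 8.03% of all genes. The median log2 level of dimt-1 RNAi replicate 3 over the EV mean was -0.048, 0.076, 0.10 and 0.058 for these 4 lists. With that library included no gene passed the threshold in edgeR with its filter on low counts, and 346 passed without the filter.

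In all 8 libraries edgeR called 0 of 15441 genes, while 2504 genes had an unadjusted p under 0.05. On the same 8 libraries edgeR without its filter on low counts called 346 genes, and DESeq2 called 647. Limma voom with library quality weights, which gave dimt-1 RNAi replicate 3 the lowest weight of the 8 (0.327), called 1601. Without dimt-1 RNAi replicate 3 edgeR called 2379 of 15845 genes (15.0%), of which 1107 rose and 1272 fell. No other library decided the result in this way: leaving out any other single library of the 8 gave 0 calls. Within the 7, leaving out dimt-1 RNAi replicate 1 lowered the count to 1245.

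The 1107 called genes rose by a median of 1.74 on the log2 scale in the 7 libraries and by 1.41 in all 8, and 714 of them rose at least 2-fold. Their median log2 level over the EV mean was 1.51, 0.86 and 1.52 in dimt-1 RNAi replicates 1, 2 and 4, and 0.015 in dimt-1 RNAi replicate 3. Replicate 3, which this fit did not use, was within the EV range for 646 of them (58.4%), above it for 255 and below it for 206. The 1272 genes that fell changed less, with a median of -0.50 in 7 libraries and -0.36 in all 8, and 253 of them fell at least 2-fold. Their medians over the EV mean were -0.60, -0.44 and -0.44 in dimt-1 RNAi replicates 1, 2 and 4, and 0.027 in replicate 3, which was within the EV range for 719 of them (56.5%), below it for 244 and above it for 309. Replicate 3 thus sat at the EV level in both directions, and replicate 2 had the smallest rises of the other 3.

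**Figure D1:**
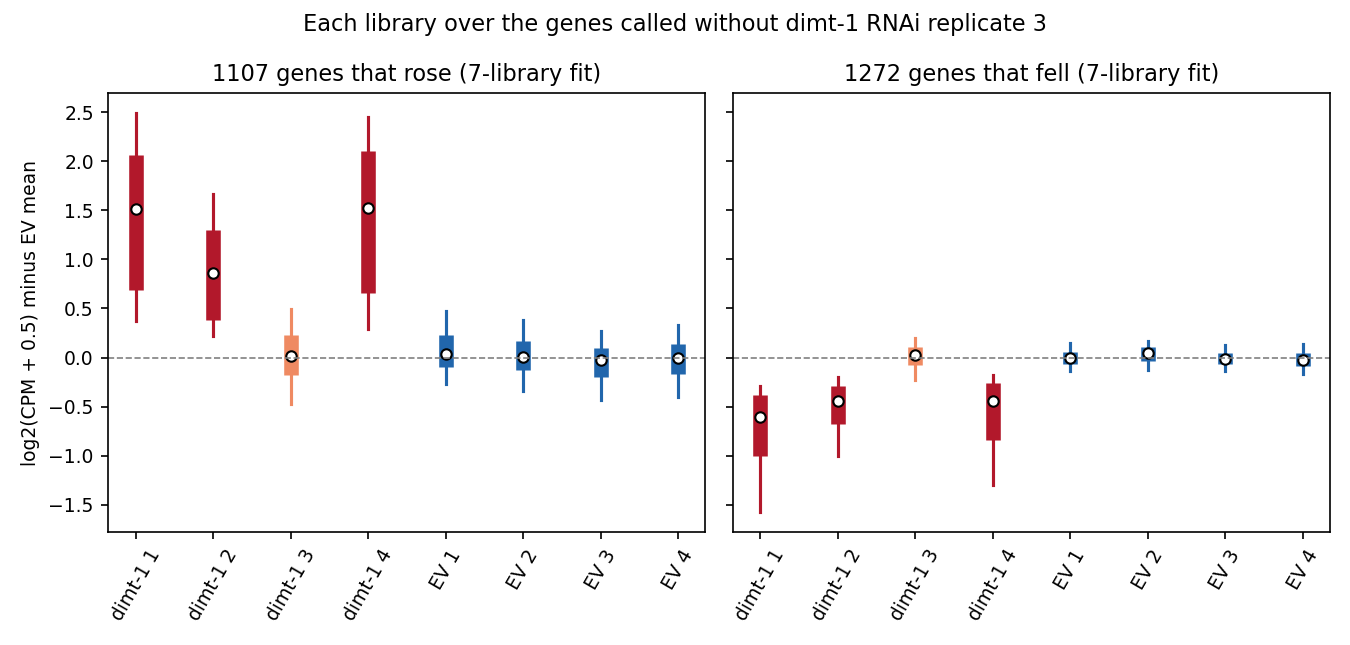
Level of each library, as log2(CPM + 0.5) minus the EV mean, over the 1107 genes that rose (left) and the 1272 genes that fell (right) in the fit of 7 libraries. White points are medians, thick bars run over the 25th to 75th and thin lines over the 10th to 90th percentiles. The medians of dimt-1 RNAi replicates 1, 2 and 4 lie at 0.86 to 1.52 and -0.60 to -0.44, those of dimt-1 RNAi replicate 3 at 0.015 and 0.027.

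The targeted gene, listed as E02H1.1 (WBGene00008455, chrII:9589865-9591164, minus strand, WBcel235), had 28.3, 32.0 and 25.9 CPM in dimt-1 RNAi replicates 1, 2 and 4 and 39.2 CPM in replicate 3, against 37.7, 41.7, 40.5 and 37.3 CPM on EV. Replicates 1, 2 and 4 were below all EV libraries and averaged 73.2% of the EV mean, while replicate 3 was inside the EV range at 99.8% of that mean. Over 4 against 4 libraries an exact permutation test of the mean difference, two-sided, gave p = 0.0857. Over 3 against 4 the exact permutation test gave p = 0.0286, the smallest it can give at either size. With replicate 3 left out the groups did not overlap, which places this p-value at its floor. It does not allow for the choice to leave that library out. For E02H1.1 the log2 fold change was -0.45 (SE 0.10, adjusted p = 0.00735) in 7 libraries and -0.33 (adjusted p = 0.228) in all 8. The level of the target was thus below all EV libraries in 3 of the 4 libraries labelled dimt-1 RNAi. The deposited counts (1020 to 1962 on this gene) do not separate worm messenger RNA from bacterial double-stranded RNA of the same sequence, whose part in these levels was not tested.

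The vitellogenins fell as a group, and the 250 bases before the annotated gene start of 3 of them are shown because all 6 vit genes hold the same pair of short motifs there. Sequences are from the RefSeq copy of the WBcel235 genome, 5′ to 3′ on the strand of the gene, and capitals mark TGATAA and TGTCAAT on either strand (TTATCA and ATTGACA are the same motifs read from the other strand).
vit-1 (chrX:7727639-7727888, plus strand): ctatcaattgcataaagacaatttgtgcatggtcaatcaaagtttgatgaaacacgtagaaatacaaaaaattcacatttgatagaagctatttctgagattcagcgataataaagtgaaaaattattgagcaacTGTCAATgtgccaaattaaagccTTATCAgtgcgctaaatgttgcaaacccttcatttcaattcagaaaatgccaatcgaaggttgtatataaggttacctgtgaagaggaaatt
vit-4 (chrX:3563966-3564215, minus strand): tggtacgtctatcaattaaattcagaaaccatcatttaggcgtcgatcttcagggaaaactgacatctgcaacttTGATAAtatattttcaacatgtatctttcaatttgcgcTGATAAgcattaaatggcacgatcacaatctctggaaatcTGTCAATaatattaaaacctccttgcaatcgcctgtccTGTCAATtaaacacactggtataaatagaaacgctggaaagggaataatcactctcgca
vit-6 (chrIV:8260907-8261156, plus strand): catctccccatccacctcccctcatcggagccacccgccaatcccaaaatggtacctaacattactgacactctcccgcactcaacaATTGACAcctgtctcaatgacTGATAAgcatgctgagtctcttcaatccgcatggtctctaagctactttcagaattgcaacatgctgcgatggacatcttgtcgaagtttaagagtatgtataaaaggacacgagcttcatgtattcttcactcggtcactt
TGATAA, the core bound by GATA factors such as those of the intestine, was in all 6 vit windows and in 26.9% of the windows of 14942 protein-coding genes tested. TGTCAAT was in all 6 as well and in 4.81% of the 14942. Among all genes that fell the shares were 28.6% and 5.0%, and among those that rose 32.5% and 4.1%. A match is a match of letters only.

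The major sperm protein genes rose as a group, and the first 120 coding bases of the pair named here are shown because reads from such genes are hard to tell apart. Capitals mark the 8 positions at which the 2 genes differ.
msp-3 (chrII:4785898-4786281, minus strand): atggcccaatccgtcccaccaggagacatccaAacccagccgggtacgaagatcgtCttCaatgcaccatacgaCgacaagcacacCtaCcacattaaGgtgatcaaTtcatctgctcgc
msp-50 (chrII:5199797-5200180, plus strand): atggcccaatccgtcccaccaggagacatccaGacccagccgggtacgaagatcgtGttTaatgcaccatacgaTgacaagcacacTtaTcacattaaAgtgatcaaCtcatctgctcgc
Over the whole coding sequence they are 91.1% identical. Among the 31 msp genes, 28 have a coding length of 381 bases, identities between those 28 were 86.1 to 99.5% with a median of 92.5%, and 27 of the 31 share an unbroken stretch of 100 bases with another msp gene. How reads that fit several genes were counted is not given in the sources used here, so levels of single msp genes are uncertain and the family is the firmer unit.

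Sperm genes made up the clearest rise. Of the 31 major sperm proteins, the cytoskeletal proteins that move the crawling sperm and signal to oocytes, 27 rose and 0 fell. Their summed level was 1125, 632 and 1345 CPM in dimt-1 RNAi replicates 1, 2 and 4 and 274 CPM in replicate 3, against 325, 323, 244 and 268 CPM on EV. The 3 replicates lay above every EV library by more than the whole spread among the EV libraries, and replicate 3 lay inside it. The median log2 fold change was 1.84 in 7 libraries and 1.52 in all 8, and dimt-1 RNAi replicate 3 alone had -0.048 over the EV mean. Over all genes tested the medians were 0.019 and 0.014 in the 2 fits.

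The gene msp-50 had 52.9, 27.3 and 52.4 CPM in dimt-1 RNAi replicates 1, 2 and 4 and 11.8 CPM in replicate 3, against 13.1, 9.47, 9.40 and 6.59 CPM on EV. Its relative msp-3 had 29.6, 16.25 and 37.8 CPM in dimt-1 RNAi replicates 1, 2 and 4 and 7.93 CPM in replicate 3, against 6.28, 6.84, 2.85 and 7.997 CPM on EV. For both, replicates 1, 2 and 4 were above all EV libraries and replicate 3 was within their range. The msp-50 log2 fold change was 2.19 (SE 0.23, adjusted p = 9.67e-06) in 7 libraries and 1.90 (adjusted p = 0.0929) in all 8, and that of msp-3 was 2.22 (SE 0.30, adjusted p = 9.62e-05) in 7 libraries and 1.94 (adjusted p = 0.0929) in all 8. Of the 27 msp genes that rose, replicate 3 was within the EV range for 21, below it for 5 and above it for 1.

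Other genes of sperm formation and function moved in the same direction, with 66.2% called beside 15.0% of all genes. Of 65 tested, 42 rose and 1 fell, with a median log2 fold change of 1.79 in 7 libraries and 1.54 in all 8, and dimt-1 RNAi replicate 3 alone had -0.018 over the EV mean. All 9 nspd genes tested and all 4 ssq genes rose, as did 7 of 9 ssp genes and 7 of 23 spe genes, the group named for sterility through defective sperm. The gene spch-3, which encodes a protein of sperm chromatin, had 75.3, 33.7 and 74.7 CPM in dimt-1 RNAi replicates 1, 2 and 4 and 7.77 CPM in replicate 3, against 12.2, 12.4, 7.30 and 9.07 CPM on EV. Replicate 3 was within the EV range and the other 3 were far above it. In edgeR, spch-3 had a log2 fold change of 2.58 (SE 0.24, adjusted p = 4.59e-06) in 7 libraries and 2.23 (adjusted p = 0.0957) in all 8. The short peptide gene nspd-6 had a log2 fold change of 2.46 in 7 libraries (adjusted p = 4.88e-05) and 2.15 in all 8.

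Oocyte, meiosis and germ granule genes showed little of this rise. Of 37 oocyte and eggshell genes 1 rose and 5 fell, of 37 meiosis genes 2 rose and 0 fell, and of 27 germ granule and germline small RNA genes 0 rose and 1 fell. Leaving out dimt-1 RNAi replicate 1 gave 0 and 4, 0 and 0, and 0 and 0 in the same order. The medians in 7 libraries were -0.037, 0.13 and -0.027 in that order, with 18 of 37, 31 of 37 and 11 of 27 members higher. The share called was close to the 15.0% of all genes for oocyte genes. It was 5.41% for meiosis and 3.70% for germ granule genes. The summed oocyte level was 21962, 23747 and 22239 CPM in dimt-1 RNAi replicates 1, 2 and 4, below every EV library. In replicate 3 it was 24369 CPM, above every EV library (23842 to 24054 CPM). The summed germ granule level was 4572, 4571 and 4527 CPM in dimt-1 RNAi replicates 1, 2 and 4 and 4580.2 CPM in replicate 3, against 4559, 4588, 4674 and 4534 CPM on EV, a spread of a few percent over all libraries. The falls among oocyte genes were large for cav-1, a caveolin of the germline, with 65.0, 109 and 86.2 CPM in dimt-1 RNAi replicates 1, 2 and 4 and 237 CPM in replicate 3, against 212, 201, 204 and 199.6 CPM on EV. The same was seen for perm-4, named for the permeability barrier of the eggshell, with 511, 685 and 836 CPM in dimt-1 RNAi replicates 1, 2 and 4 and 1616 CPM in replicate 3, against 1432, 1598, 1321 and 1244 CPM on EV. In both genes replicates 1, 2 and 4 were below all EV libraries and replicate 3 was above all of them. The cav-1 log2 fold change was -1.24 (SE 0.12, adjusted p = 6.7e-06) in 7 libraries and -0.72 (adjusted p = 0.264) in all 8, and that of perm-4 was -1.05 (SE 0.13, adjusted p = 3.56e-05) in 7 libraries and -0.62 (adjusted p = 0.281) in all 8.

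Smaller changes were called for pos-1, a maternal RNA-binding protein, with 1701 ± 74.4 CPM in dimt-1 RNAi replicates 1, 2 and 4 and 1555 CPM in replicate 3, against 1495 ± 33.1 CPM on EV, where ± is the SD over 3 and 4 libraries here and below. The pos-1 log2 fold change was 0.18 (adjusted p = 0.0361) in 7 libraries and 0.15 in all 8. For pos-1 all 4 dimt-1 RNAi libraries were above the EV range. Small rises were also called for the meiotic genes him-3, of the chromosome axis, with a log2 fold change of 0.24 (adjusted p = 0.0164) and syp-2, of the synaptonemal complex, with 0.29 (adjusted p = 0.0301). In all 8 libraries they had 0.18 and 0.23, and replicate 3 was within the EV range for both. The P granule helicase gene glh-2 fell by 0.23 on the log2 scale (adjusted p = 0.0148), with 128, 127 and 127 CPM in dimt-1 RNAi replicates 1, 2 and 4 and 159.5 CPM in replicate 3, against 145, 147, 154 and 151 CPM on EV. Its 3 lower libraries were close together and replicate 3 was above every EV library. The calls of pos-1, syp-2, him-3 and glh-2 were lost in 6, 4, 3 and 1 of the 7 fits that left out a further library.

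Genes first transcribed in the early embryo were called downward or not at all. Of 43 tested, 13 fell and 0 rose, and their median log2 fold change was -0.93 in 7 libraries and -0.69 in all 8, and dimt-1 RNAi replicate 3 alone had -0.11 over the EV mean. Summed over all 49 listed, tested or not, they reached 116, 172 and 119.8 CPM in dimt-1 RNAi replicates 1, 2 and 4. The sum was 230.1 CPM in replicate 3, against 234, 249, 264 and 236 CPM on EV. All 4 dimt-1 RNAi libraries were below the lowest EV library, replicate 3 by a small margin. The share called in the 7 libraries was 30.2%, beside 15.0% of all genes. Without EV replicate 3 the falls numbered 8. The very early transcript vet-6 had 5.58, 9.18 and 5.33 CPM in dimt-1 RNAi replicates 1, 2 and 4 and 12.8 CPM in replicate 3, against 15.0, 19.2, 16.25 and 18.1 CPM on EV. The gene sdz-28, of a group named for zygotic expression that depends on the factor SKN-1, had 6.85, 8.26 and 5.53 CPM in dimt-1 RNAi replicates 1, 2 and 4 and 14.7 CPM in replicate 3, against 16.8, 17.0, 20.7 and 15.6 CPM on EV. In both, replicate 3 was below all EV libraries with the other 3, though nearer to them. In edgeR, vet-6 had a log2 fold change of -1.35 (SE 0.20, adjusted p = 0.00026) in 7 libraries and -1.06 (adjusted p = 0.102) in all 8, and that of sdz-28 was -1.35 (SE 0.18, adjusted p = 9.37e-05) in 7 libraries and -0.99 (adjusted p = 0.119) in all 8.

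Cuticle collagens, the structural proteins laid down at each molt, formed the largest group of rising genes among the lists examined. Of 136 tested, 65 rose and 12 fell, with a median log2 fold change of 1.30 in 7 libraries and 1.11 in all 8, and dimt-1 RNAi replicate 3 alone had 0.076 over the EV mean. The 117 numbered col genes gave 62 rises and 6 falls. The 11 dpy collagens, whose loss makes short and fat worms, ran the other way, with 3 rises and 5 falls and a median of -0.76 in 7 libraries and -0.40 in all 8. The summed level of all 175 collagens listed, tested or not, did not follow the count of calls. It was 54678, 48007 and 65408 CPM in dimt-1 RNAi replicates 1, 2 and 4 and 55344 CPM in replicate 3. On EV it was 53349, 55329, 48919 and 51048 CPM, and the groups overlapped.

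Among them, col-146 had 33.5, 11.6 and 25.5 CPM in dimt-1 RNAi replicates 1, 2 and 4 and 2.19 CPM in replicate 3, against 3.24, 0.942, 0.949 and 0.666 CPM on EV. Another that rose, col-161, had 20.8, 10.3 and 25.4 CPM in dimt-1 RNAi replicates 1, 2 and 4 and 0.977 CPM in replicate 3, against 2.16, 1.55, 1.24 and 1.23 CPM on EV. Replicate 3 was within the EV range for col-146 and below it for col-161, while the other 3 were above all EV libraries for both. The col-146 log2 fold change was 4.02 (SE 0.44, adjusted p = 1.59e-05) in 7 libraries and 3.65 (adjusted p = 0.0929) in all 8, and that of col-161 was 3.61 (SE 0.30, adjusted p = 1.8e-06) in 7 libraries and 3.22 (adjusted p = 0.0929) in all 8. In the opposite direction, col-135 had 4.08, 17.8 and 6.29 CPM in dimt-1 RNAi replicates 1, 2 and 4 and 56.5 CPM in replicate 3, against 47.3, 50.9, 51.8 and 40.0 CPM on EV. For col-135 replicate 3 was the only dimt-1 RNAi library not below the EV range, and it was above it. For col-135 the log2 fold change was -2.34 (SE 0.34, adjusted p = 0.000195) in 7 libraries and -1.17 (adjusted p = 0.357) in all 8. A smaller fall was called for col-43, with a log2 fold change of -1.37 in 7 libraries (adjusted p = 0.000647) and -0.73 in all 8.

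Of 70 molting and hedgehog-related genes tested, 3 rose and 9 fell, and 3 of the 4 mlt genes fell. The share called was 17.1% beside 15.0% of all genes. Among the rises, the molting protease gene nas-37 and the hedgehog-related gene grd-10 had log2 fold changes of 0.80 and 0.68 in 7 libraries (adjusted p = 0.00513 and 0.00366) and 0.67 and 0.55 in all 8. The apical matrix gene noah-2 had 6.28, 11.3 and 14.3 CPM in dimt-1 RNAi replicates 1, 2 and 4 and 28.5 CPM in replicate 3, against 27.4, 28.3, 29.7 and 29.7 CPM on EV. The protease inhibitor gene mlt-11 had 2.12, 7.18 and 8.27 CPM in dimt-1 RNAi replicates 1, 2 and 4 and 15.4 CPM in replicate 3, against 14.7, 14.3, 16.04 and 16.9 CPM on EV. For noah-2 and mlt-11 replicate 3 was inside the EV range and the other 3 below it. For noah-2 the log2 fold change was -1.44 (SE 0.20, adjusted p = 0.00016) in 7 libraries and -0.93 (adjusted p = 0.204) in all 8, and that of mlt-11 was -1.41 (SE 0.32, adjusted p = 0.00629) in 7 libraries and -0.91 (adjusted p = 0.293) in all 8. Over all 99 genes listed, tested or not, the summed level was 1266, 1326 and 1359 CPM in dimt-1 RNAi replicates 1, 2 and 4. It was 1422 CPM in replicate 3, against 1429.7, 1442, 1437 and 1436 CPM on EV. All 4 dimt-1 RNAi libraries were thus below the narrow EV range, replicate 3 by a small margin. Without dimt-1 RNAi replicate 1 the falls numbered 5.

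All 6 vitellogenins fell, the genes whose promoters are shown above. Their summed level was 27403, 29407 and 34628 CPM in dimt-1 RNAi replicates 1, 2 and 4 and 47653 CPM in replicate 3, against 42859.7, 49001, 42956 and 42137 CPM on EV. Replicates 1, 2 and 4 were below every EV library and replicate 3 was among them. The median log2 fold change of the 6 was -0.55 in 7 libraries and -0.34 in all 8, and dimt-1 RNAi replicate 3 alone had 0.10 over the EV mean. The gene vit-4 had 2896, 3455 and 3745 CPM in dimt-1 RNAi replicates 1, 2 and 4 and 6357 CPM in replicate 3, against 5450.5, 6229, 5459 and 5346 CPM on EV. Its relative vit-1 had 2034, 2474 and 2507 CPM in dimt-1 RNAi replicates 1, 2 and 4 and 3909 CPM in replicate 3, against 4047, 4453, 4048 and 3841 CPM on EV. Replicate 3 was above all EV libraries for vit-4 and within their range for vit-1. The vit-4 log2 fold change was -0.74 (SE 0.082, adjusted p = 1.66e-05) in 7 libraries and -0.45 (adjusted p = 0.267) in all 8, and that of vit-1 was -0.81 (SE 0.077, adjusted p = 5.68e-06) in 7 libraries and -0.59 (adjusted p = 0.122) in all 8.

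**Figure D2:**
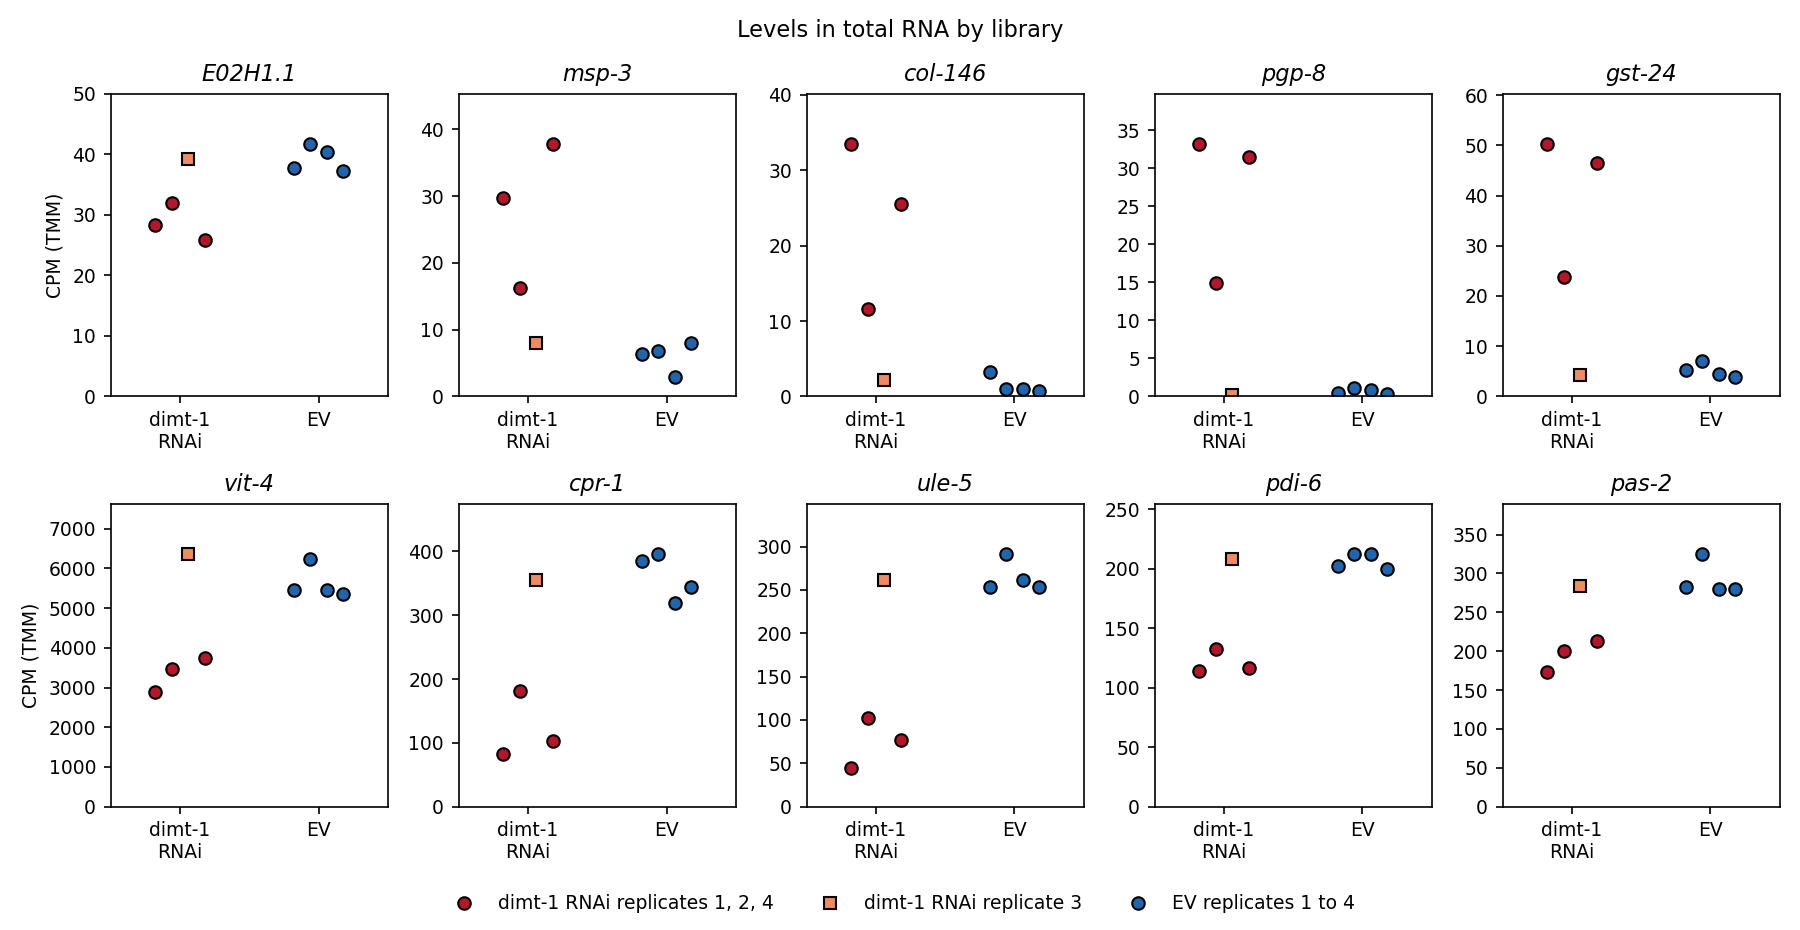
CPM of 10 genes in each library, dimt-1 RNAi left of EV, with dimt-1 RNAi replicates 1, 2 and 4 as red circles, replicate 3 as an orange square and EV as blue circles; each vertical axis starts at 0. In E02H1.1, vit-4, cpr-1, ule-5, pdi-6 and pas-2 the red circles lie below all EV points, in msp-3, col-146, pgp-8 and gst-24 above them, and the square lies within the EV range except in vit-4, where it is above it, and pgp-8, where it is below it.

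Lipid enzymes gave both directions. Of 75 tested, 9 rose and 21 fell, a share called of 40.0% beside 15.0% of all genes. Of the falls, 8 were among 12 acyl-CoA dehydrogenases (acdh), of which 2 rose. A further 5 were among 10 ech genes of the enoyl-CoA hydratase group and 3 among 8 lbp fatty acid binding proteins. The dehydrogenase of acdh-1 is annotated as specific to short and branched chains. The gene acdh-1 had 199, 321 and 258 CPM in dimt-1 RNAi replicates 1, 2 and 4 and 607 CPM in replicate 3, against 595, 634, 594 and 594 CPM on EV. The related acdh-2 had 13.7, 39.3 and 16.4 CPM in dimt-1 RNAi replicates 1, 2 and 4 and 52.6 CPM in replicate 3, against 59.1, 55.0, 61.5 and 62.0 CPM on EV. Replicate 3 lay within the EV range for acdh-1 and just below it for acdh-2. The acdh-1 log2 fold change was -1.22 (SE 0.11, adjusted p = 4.64e-06) in 7 libraries and -0.80 (adjusted p = 0.169) in all 8, and that of acdh-2 was -1.36 (SE 0.25, adjusted p = 0.00151) in 7 libraries and -0.96 (adjusted p = 0.197) in all 8.

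Desaturases, which put double bonds into fatty acids, were called upward in 2 of 7 cases, beside 6.99% of all genes. The delta-9 desaturase gene fat-7 had 78.1, 55.4 and 78.2 CPM in dimt-1 RNAi replicates 1, 2 and 4 and 47.3 CPM in replicate 3, against 39.0, 40.7, 40.3 and 37.0 CPM on EV. The delta-12 desaturase gene fat-2 had 601, 513 and 584 CPM in dimt-1 RNAi replicates 1, 2 and 4 and 339.9 CPM in replicate 3, against 391, 358, 381 and 375 CPM on EV. All 4 dimt-1 RNAi libraries were above the EV range for fat-7, whereas for fat-2 replicate 3 was below it. The fat-7 log2 fold change was 0.84 (SE 0.11, adjusted p = 7.06e-05) in 7 libraries and 0.72 (adjusted p = 0.0929) in all 8, and that of fat-2 was 0.59 (SE 0.065, adjusted p = 1.66e-05) in 7 libraries and 0.44 (adjusted p = 0.169) in all 8.

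The largest rises came from a mixed set of called genes whose groups did not overlap, with at most 2 per family. Each had a mean of at least 5 CPM over the 8 libraries. That mean includes the dimt-1 RNAi libraries, so genes near the floor on EV passed through the group where they were high. The EV mean was 0.698 CPM for pgp-8, 1.12 CPM for Y47D7A.13 and 1.45 CPM for col-146. The size of such folds is uncertain. The gene pgp-8 (chrX), a P-glycoprotein of the ABC transporter family, had 33.2, 14.9 and 31.5 CPM in dimt-1 RNAi replicates 1, 2 and 4 and 0.233 CPM in replicate 3, against 0.412, 1.16, 0.907 and 0.308 CPM on EV. Replicate 3 was below all EV libraries here, at the far end from the other 3. In edgeR, pgp-8 had a log2 fold change of 5.24 (SE 0.37, adjusted p = 7.1e-07) in 7 libraries and 4.83 (adjusted p = 0.0929) in all 8. The WW domain gene F08G2.5 (chrII) had 80.6, 38.5 and 62.9 CPM in dimt-1 RNAi replicates 1, 2 and 4 and 4.37 CPM in replicate 3, against 4.69, 3.16, 1.73 and 5.28 CPM on EV. The glutathione transferase gene gst-24 (chrII) had 50.3, 23.7 and 46.5 CPM in dimt-1 RNAi replicates 1, 2 and 4 and 4.28 CPM in replicate 3, against 5.25, 7.15, 4.37 and 3.95 CPM on EV. In these last 2 genes replicate 3 was inside the EV range. In edgeR, F08G2.5 had a log2 fold change of 4.04 (SE 0.29, adjusted p = 8.87e-07) in 7 libraries and 3.65 (adjusted p = 0.0929) in all 8, and that of gst-24 was 2.96 (SE 0.24, adjusted p = 1.73e-06) in 7 libraries and 2.59 (adjusted p = 0.0929) in all 8.

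Also in this set, msrp-2, annotated as an MS related protein, had 88.6, 51.8 and 85.5 CPM in dimt-1 RNAi replicates 1, 2 and 4 and 11.5 CPM in replicate 3, against 12.8, 7.87, 12.5 and 13.3 CPM on EV. Replicate 3 was within the EV range for msrp-2, and likewise for T08B2.12 of the same annotation, the MSP domain gene F58A6.9 and the decapping nuclease gene M01G12.9. The msrp-2 log2 fold change was 2.69 (SE 0.18, adjusted p = 6.63e-07) in 7 libraries and 2.35 (adjusted p = 0.0929) in all 8. The log2 fold changes of T08B2.12, F58A6.9 and M01G12.9 were 2.68, 2.84 and 2.98 in 7 libraries and 2.35, 2.49 and 2.63 in all 8. On chromosome V, Y47D7A.13, annotated with a prion-like domain, and Y47D7A.15, annotated as a glycine-rich secreted protein, had log2 fold changes of 3.33 and 3.08 in 7 libraries, and 3.06 and 2.71 in all 8.

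The largest falls, after col-135, included 2 members of the C-type lectin family. The gene clec-222 had 0.978, 6.26 and 1.88 CPM in dimt-1 RNAi replicates 1, 2 and 4 and 20.4 CPM in replicate 3, against 14.5, 16.23, 14.2 and 15.8 CPM on EV. Its relative clec-223 had 4.81, 20.9 and 5.73 CPM in dimt-1 RNAi replicates 1, 2 and 4 and 38.8 CPM in replicate 3, against 35.8, 44.4, 35.3 and 40.1 CPM on EV. Replicates 1, 2 and 4 spread widely in both, replicate 2 lay nearest the EV range, and replicate 3 was above or within that range. For clec-222 the log2 fold change was -2.32 (SE 0.42, adjusted p = 0.00128) in 7 libraries and -1.04 (adjusted p = 0.463) in all 8, and that of clec-223 was -1.89 (SE 0.36, adjusted p = 0.00188) in 7 libraries and -1.15 (adjusted p = 0.289) in all 8. The flavin-containing monooxygenase gene fmo-2 had 1.22, 3.38 and 1.93 CPM in dimt-1 RNAi replicates 1, 2 and 4 and 5.77 CPM in replicate 3, against 10.7, 7.92, 7.13 and 6.92 CPM on EV. For this gene replicate 3 was below every EV library with the others. For fmo-2 the log2 fold change was -1.91 (SE 0.32, adjusted p = 0.000707) in 7 libraries and -1.41 (adjusted p = 0.138) in all 8.

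Further genes among the 12 largest falls differed in annotation. The gene ule-5, annotated as expressed in the lumen of the uterus, had 44.5, 103 and 76.6 CPM in dimt-1 RNAi replicates 1, 2 and 4 and 261 CPM in replicate 3, against 254, 291, 261 and 253 CPM on EV. The tyramine beta-hydroxylase gene tbh-1, which makes octopamine, had 21.4, 47.1 and 38.6 CPM in dimt-1 RNAi replicates 1, 2 and 4 and 126 CPM in replicate 3, against 132, 136, 125 and 106 CPM on EV. Both showed replicate 3 inside the EV range and the other 3 below it. The ule-5 log2 fold change was -1.83 (SE 0.18, adjusted p = 8.3e-06) in 7 libraries and -1.13 (adjusted p = 0.197) in all 8, and that of tbh-1 was -1.81 (SE 0.18, adjusted p = 8.7e-06) in 7 libraries and -1.101 (adjusted p = 0.202) in all 8. The chitin-binding gene C39D10.7 had 60.3, 128 and 109.7 CPM in dimt-1 RNAi replicates 1, 2 and 4 and 361 CPM in replicate 3, against 309.9, 379, 334 and 322 CPM on EV. Replicate 3 was again inside the EV range for C39D10.7. For C39D10.7 the log2 fold change was -1.76 (SE 0.17, adjusted p = 7.49e-06) in 7 libraries and -1.03 (adjusted p = 0.233) in all 8. The gene ZK813.3, annotated as related to fungus-induced proteins, had a log2 fold change of -1.90 in 7 libraries (adjusted p = 3.76e-05) and -1.13 in all 8.

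The other 4 of the 12 largest falls were of low level. The ZP domain gene F54F7.2 had 2.94 ± 1.98 CPM in dimt-1 RNAi replicates 1, 2 and 4 and 14.4 CPM in replicate 3, against 14.0 ± 0.975 CPM on EV. The uncharacterized gene E02H9.7 had 2.18 ± 0.18 CPM in dimt-1 RNAi replicates 1, 2 and 4 and 8.14 CPM in replicate 3, against 9.35 ± 1.13 CPM on EV. In F54F7.2 and E02H9.7 replicate 3 was within the EV range. In edgeR, F54F7.2 had a log2 fold change of -2.25 (adjusted p = 0.000163) in 7 libraries and -1.27 in all 8, and that of E02H9.7 was -2.099 (adjusted p = 1.3e-05) in 7 libraries and -1.35 in all 8. The BTB domain gene F15B10.3, with replicate 3 just below that range, had a log2 fold change of -1.81 in 7 libraries (adjusted p = 5.83e-05) and -1.22 in all 8. The gene Y71A12B.11 had a log2 fold change of -1.78 (adjusted p = 5.66e-05), with 23.5 CPM in replicate 3 and 22.8 CPM as the EV mean.

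Most proteasome genes fell. Of 33 proteasome subunits, the parts of the machine that degrades ubiquitin-tagged proteins, 26 fell and 0 rose. The calls took in all 7 alpha (pas) and all 7 beta (pbs) subunits of the core, 5 of 6 ATPases (rpt) and 7 of 13 other regulatory subunits (rpn). The median log2 fold change was -0.25 in 7 libraries and -0.19 in all 8, and dimt-1 RNAi replicate 3 alone had 0.058 over the EV mean. Summed, the proteasome had 6197, 6473 and 6963 CPM in dimt-1 RNAi replicates 1, 2 and 4 and 8414 CPM in replicate 3, against 7943, 8574, 8021 and 7800.0 CPM on EV, with replicates 1, 2 and 4 below every EV library and replicate 3 inside the EV range. The gene pas-2 had 173, 199.9 and 214 CPM in dimt-1 RNAi replicates 1, 2 and 4 and 284 CPM in replicate 3, against 283, 325, 281 and 280.1 CPM on EV. All of replicates 1, 2 and 4 were below the EV range for pas-2, and replicate 3 was within it. In edgeR, pas-2 had a log2 fold change of -0.58 (SE 0.078, adjusted p = 0.000109) in 7 libraries and -0.42 (adjusted p = 0.149) in all 8. The gene pbs-5 had a log2 fold change of -0.59 in 7 libraries (adjusted p = 0.00025) and -0.40 in all 8. Without dimt-1 RNAi replicate 1 the falls numbered 14.

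Of 69 heat shock proteins and chaperones, 29 fell, 1 rose and 39 were not called. The share called was 43.5%, beside 15.0% of all genes. All 8 subunits of the CCT chaperonin (cct), which folds actin and tubulin, and all 4 protein disulfide isomerases listed (pdi) fell, with medians of -0.40 and -0.56 in 7 libraries and -0.30 and -0.39 in all 8. The gene pdi-6 had 114, 132 and 117 CPM in dimt-1 RNAi replicates 1, 2 and 4 and 208 CPM in replicate 3, against 202, 212, 212 and 199.5 CPM on EV. The gene pdi-2 had 337, 408 and 348 CPM in dimt-1 RNAi replicates 1, 2 and 4 and 553 CPM in replicate 3, against 602, 611, 647 and 595 CPM on EV. Replicate 3 was within the EV range for pdi-6 and below it for pdi-2. The pdi-6 log2 fold change was -0.77 (SE 0.067, adjusted p = 2.96e-06) in 7 libraries and -0.53 (adjusted p = 0.152) in all 8, and that of pdi-2 was -0.75 (SE 0.071, adjusted p = 5.24e-06) in 7 libraries and -0.58 (adjusted p = 0.0929) in all 8. Of 18 hsp genes 7 fell, and of 29 dnj genes 4 fell and 1, dnj-3, rose by a log2 of 0.43 (adjusted p = 0.0382) in 7 libraries and had 0.34 in all 8. For dnj-3 replicate 3 was within the EV range, and its call was lost in 6 of the 7 fits that left out a further library.

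Of 61 autophagy and lysosome genes 19 fell, 1 rose and 41 were not called. The share called was 32.8%, beside 15.0% of all genes. The falls took in 6 of 7 cathepsin B-like proteases (cpr) and all 4 aspartic proteases listed (asp). Of 20 vha subunits of the proton pump 0 fell and 1 rose. The gene cpr-1, of the gut, had 82.3, 181 and 103 CPM in dimt-1 RNAi replicates 1, 2 and 4 and 355 CPM in replicate 3, against 385, 396, 319 and 345 CPM on EV. The gene cpr-5 had 71.7, 166 and 110.2 CPM in dimt-1 RNAi replicates 1, 2 and 4 and 331 CPM in replicate 3, against 338, 368, 314 and 320.3 CPM on EV. Both had replicate 3 inside the EV range and the other 3 far below it. For cpr-1 the log2 fold change was -1.57 (SE 0.19, adjusted p = 3.23e-05) in 7 libraries and -1.003 (adjusted p = 0.197) in all 8, and that of cpr-5 was -1.53 (SE 0.18, adjusted p = 3.64e-05) in 7 libraries and -0.98 (adjusted p = 0.197) in all 8. The pump subunit vha-7 had 113 ± 6.60 CPM in dimt-1 RNAi replicates 1, 2 and 4 and 84.5 CPM in replicate 3, against 95.8 ± 5.004 CPM on EV. Replicate 3 was below the EV range for vha-7, and the call was lost in 5 of the 7 fits that left out a further library. In edgeR, vha-7 had a log2 fold change of 0.24 (adjusted p = 0.0299) in 7 libraries and 0.14 in all 8.

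The ribosome itself changed little in messenger RNA. Of 81 cytosolic ribosomal proteins 3 rose and 4 fell, 8.64% of them beside 15.0% of all genes. The falls numbered 11 without dimt-1 RNAi replicate 4 and 2 without dimt-1 RNAi replicate 1 or EV replicate 1 or 2, and the rises numbered 6 without dimt-1 RNAi replicate 2. Their median log2 fold change was 0.017 in 7 libraries and 0.039 in all 8, and dimt-1 RNAi replicate 3 alone had 0.12 over the EV mean. The calls included both members of 2 paralog pairs, in opposite directions. Of the uL5 pair, rpl-11.2 rose, with 1076, 763 and 995 CPM in dimt-1 RNAi replicates 1, 2 and 4 and 514 CPM in replicate 3, against 556, 526, 519.9 and 529 CPM on EV. The gene rpl-11.1 fell, with 1142, 1122 and 1422 CPM in dimt-1 RNAi replicates 1, 2 and 4 and 1858 CPM in replicate 3, against 1612, 1693, 1504 and 1590.0 CPM on EV. Replicate 3 took the opposite side in each, just below the EV range for rpl-11.2 and above it for rpl-11.1. In edgeR, rpl-11.2 had a log2 fold change of 0.83 (SE 0.088, adjusted p = 1.3e-05) in 7 libraries and 0.65 (adjusted p = 0.12) in all 8, and that of rpl-11.1 was -0.38 (SE 0.079, adjusted p = 0.00336) in 7 libraries and -0.21 (adjusted p = 0.477) in all 8. In the uL23 pair, rpl-25.1 and rpl-25.2 had log2 fold changes of 0.65 and -0.37 in 7 libraries (adjusted p = 4.76e-05 and 0.00947) and 0.50 and -0.22 in all 8. Reads that fit both copies of a pair could be split between them by the counting.

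Assembly of ribosomes gave few calls as well. Of 50 nucleolar and ribosome assembly genes 3 rose (0 or 1 without dimt-1 RNAi replicate 1 or any 1 EV library) and 0 fell, and of 69 mitochondrial ribosomal proteins 0 rose and 3 fell (1 without dimt-1 RNAi replicate 1 or EV replicate 1). In both the share called was below the 15.0% of all genes. The gene mrpl-12 had 34.6 ± 2.08 CPM in dimt-1 RNAi replicates 1, 2 and 4 and 43.7 CPM in replicate 3, against 48.5 ± 1.72 CPM on EV. For mrpl-12 the log2 fold change was -0.49 (adjusted p = 0.00111) in 7 libraries and -0.40 in all 8. The gene encodes a protein of the large mitochondrial subunit, and all 4 dimt-1 RNAi libraries were below the EV range. The gene mrps-23, of the small subunit, had a log2 fold change of -0.41 (adjusted p = 0.0205) in 7 libraries and -0.28 in all 8. Of the 12 rRNA methyltransferases and relatives listed, E02H1.1 fell and 2 rose: rrp-8 by a log2 of 0.25 (adjusted p = 0.0322) and damt-1 by 0.42 (adjusted p = 0.0387). The 2 rises became 0 or 1 without any 1 of the 7 libraries, the rrp-8 call being lost in 6 and the damt-1 call in 4 of those fits. The assembly gene pro-1 rose by 0.34 (adjusted p = 0.0335), a call lost in 5 of them. The EV range held replicate 3 for mrps-23, rrp-8, damt-1 and pro-1, and the last 3 had 0.20, 0.32 and 0.25 in all 8 libraries. The rRNA methyltransferase fibrillarin, fib-1, was at 1107 ± 55.9 CPM in dimt-1 RNAi replicates 1, 2 and 4 and 1158 CPM in replicate 3, against 1111 ± 76.5 CPM on EV (adjusted p = 0.972), without a call.

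Among translation factors most calls were falls. Of 44 tested 18 fell and 2 rose, with a median log2 fold change of -0.16 in 7 libraries and -0.13 in all 8, and dimt-1 RNAi replicate 3 alone had -0.046 over the EV mean. The share called was 45.5%, beside 15.0% of all genes. Of 25 eif initiation factor genes 13 fell. Without dimt-1 RNAi replicate 1 the 18 falls became 10. In 10 translation factors all 4 dimt-1 RNAi libraries, replicate 3 included, were below all 4 EV libraries, beside 4.13% of the 8928 genes of at least 5 CPM. The cap-binding protein gene ife-4 had 4.14, 5.57 and 6.65 CPM in dimt-1 RNAi replicates 1, 2 and 4 and 6.28 CPM in replicate 3, against 10.04, 11.8, 10.4 and 9.89 CPM on EV. The gene eif-2gamma, a subunit of the factor that brings the initiator tRNA, had 146.1, 160.1 and 178 CPM in dimt-1 RNAi replicates 1, 2 and 4 and 234 CPM in replicate 3, against 218, 241, 225 and 213 CPM on EV. Replicate 3 was with the other dimt-1 RNAi libraries for ife-4 and within the EV range for eif-2gamma. For ife-4 the log2 fold change was -0.95 (SE 0.20, adjusted p = 0.00458) in 7 libraries and -0.90 (adjusted p = 0.0929) in all 8, and that of eif-2gamma was -0.48 (SE 0.073, adjusted p = 0.000324) in 7 libraries and -0.32 (adjusted p = 0.219) in all 8. The 2 that rose, iff-2, an eIF5A gene, and eef-1A.2, an elongation factor gene, had log2 fold changes of 0.46 and 0.29 in 7 libraries (adjusted p = 0.000281 and 0.0122) and 0.31 and 0.24 in all 8.

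Of 31 aminoacyl-tRNA synthetases, which load tRNAs with amino acids, 9 fell and 0 rose, with a median of -0.15 in 7 libraries and -0.10 in all 8. The share called was 29.0%, beside 15.0% of all genes. The glycine enzyme gene gars-1 had 107, 102 and 109.6 CPM in dimt-1 RNAi replicates 1, 2 and 4 and 155 CPM in replicate 3, against 129, 158, 145 and 147 CPM on EV. Replicate 3 lay within the EV range and the other 3 below it. For gars-1 the log2 fold change was -0.44 (SE 0.073, adjusted p = 0.000599) in 7 libraries and -0.29 (adjusted p = 0.262) in all 8. The aspartate enzyme gene dars-1 had a log2 fold change of -0.40 in 7 libraries (adjusted p = 0.00292) and -0.28 in all 8. Without dimt-1 RNAi replicate 1 the falls numbered 4.

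**Figure D3:**
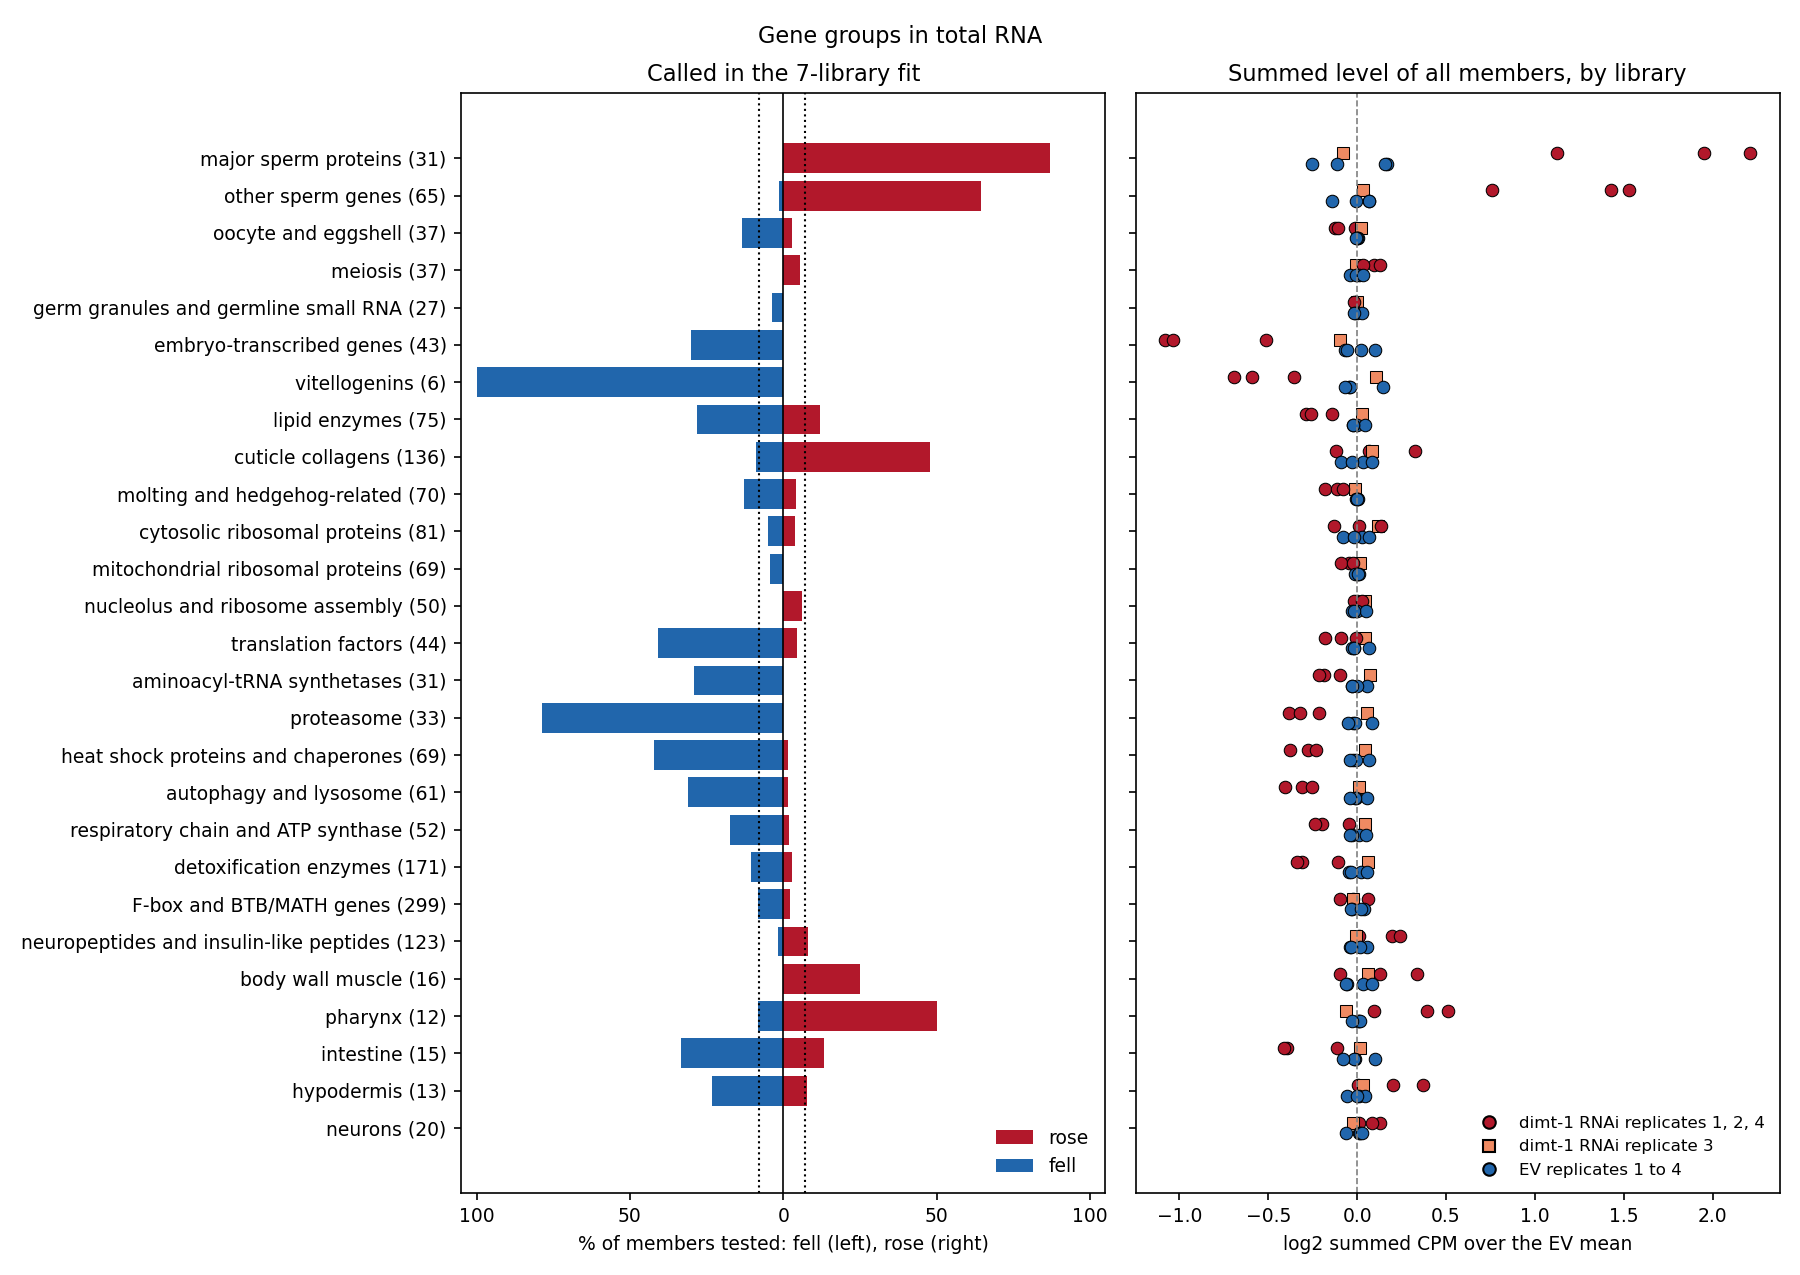
Gene groups in total RNA, with the number of members tested in brackets. Left, percent of members that fell (blue, to the left) and rose (red, to the right) in the fit of 7 libraries, with dotted lines at the shares of all genes tested (8.03% and 6.99%). Right, log2 of the summed CPM of each group over the EV mean in each library, dimt-1 RNAi points above EV points; major sperm proteins reach the right end and embryo-transcribed genes the left end in dimt-1 RNAi replicates 1, 2 and 4, and the orange square of replicate 3 lies near 0 in every row.

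Of 52 nuclear-encoded respiratory chain and ATP synthase genes, which make the machinery of ATP production in mitochondria, 9 fell, 1 rose and 42 were not called. The share called was 19.2% beside 15.0% of all genes, and the median was -0.16 in 7 libraries and -0.10 in all 8. The ATP synthase subunit gene asb-1 had 181, 196 and 223 CPM in dimt-1 RNAi replicates 1, 2 and 4 and 291 CPM in replicate 3, against 286, 288, 268 and 257 CPM on EV. The single rise was the cytochrome c gene cyc-2.2, with 13.3, 9.14 and 17.9 CPM in dimt-1 RNAi replicates 1, 2 and 4 and 2.98 CPM in replicate 3, against 5.10, 4.49, 2.39 and 1.79 CPM on EV. In asb-1 replicate 3 was above the EV range and in cyc-2.2 within it. The asb-1 log2 fold change was -0.46 (SE 0.074, adjusted p = 0.000519) in 7 libraries and -0.30 (adjusted p = 0.249) in all 8, and that of cyc-2.2 was 1.97 (SE 0.32, adjusted p = 0.000561) in 7 libraries and 1.65 (adjusted p = 0.144) in all 8. The complex III gene ucr-2.3 had a log2 fold change of -0.504 in 7 libraries (adjusted p = 0.000302) and -0.35 in all 8. The count rested on single libraries: falls numbered 23 without dimt-1 RNAi replicate 4, 3 without dimt-1 RNAi replicate 1, and 5 without dimt-1 RNAi replicate 2 or without EV replicate 1, 2 or 3.

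Of 14 genes on mitochondrial DNA that could be tested, 10 rose and 0 fell, a set picked out after its values were seen. Over all genes tested 6.99% rose. The cytochrome c oxidase subunit gene COX3 had 2150.5, 1926 and 1713 CPM in dimt-1 RNAi replicates 1, 2 and 4 and 1143 CPM in replicate 3, against 1406, 1241, 1518 and 1514 CPM on EV. The complex I subunit gene ND1 had 603, 571 and 474 CPM in dimt-1 RNAi replicates 1, 2 and 4 and 326 CPM in replicate 3, against 432, 362, 452 and 452 CPM on EV. Replicates 1, 2 and 4 were above all EV libraries in both, and replicate 3 was below all of them. In edgeR, COX3 had a log2 fold change of 0.44 (SE 0.082, adjusted p = 0.00153) in 7 libraries and 0.29 (adjusted p = 0.374) in all 8, and that of ND1 was 0.37 (SE 0.088, adjusted p = 0.00888) in 7 libraries and 0.22 (adjusted p = 0.527) in all 8. As the libraries were made from polyadenylated RNA, the share of mitochondrial reads also depends on that selection, and its part in this result was not tested.

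Of 171 detoxification enzymes 5 rose and 18 fell, and the share called was 13.5% beside 15.0% of all genes. The UDP-glucuronosyltransferase gene ugt-62 had 11.8, 14.9 and 15.1 CPM in dimt-1 RNAi replicates 1, 2 and 4 and 29.9 CPM in replicate 3, against 35.3, 32.4, 29.7 and 28.4 CPM on EV. Replicate 3 was within the EV range for ugt-62, as it was for gst-24. In edgeR, ugt-62 had a log2 fold change of -1.17 (SE 0.13, adjusted p = 2.01e-05) in 7 libraries and -0.81 (adjusted p = 0.149) in all 8. The related ugt-60 and the cytochrome P450 gene cyp-33C3 had log2 fold changes of -1.04 and 0.82 in 7 libraries (adjusted p = 0.00516 and 0.0172) and -0.64 and 0.67 in all 8. Rises in this group numbered 8 without dimt-1 RNAi replicate 2, 3 without dimt-1 RNAi replicate 4, and 1 or 2 without dimt-1 RNAi replicate 1 or without EV replicate 2, 3 or 4.

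Of 135 C-type lectins 10 rose and 12 fell, and of 60 lysozymes, saposin-like and other antimicrobial genes 6 rose and 12 fell. The shares called were 16.3% and 30.0%, beside 15.0% of all genes. The lysozyme gene lys-4 had 15.0, 35.8 and 20.4 CPM in dimt-1 RNAi replicates 1, 2 and 4 and 61.3 CPM in replicate 3, against 72.1, 84.7, 63.1 and 63.9 CPM on EV. The saposin-like gene spp-2 had 8.38, 11.8 and 10.6 CPM in dimt-1 RNAi replicates 1, 2 and 4 and 25.6 CPM in replicate 3, against 25.5, 23.3, 20.9 and 20.8 CPM on EV. Replicate 3 was slightly below the EV range for lys-4 and slightly above it for spp-2. The lys-4 log2 fold change was -1.58 (SE 0.21, adjusted p = 9.72e-05) in 7 libraries and -1.098 (adjusted p = 0.155) in all 8, and that of spp-2 was -1.14 (SE 0.15, adjusted p = 0.000109) in 7 libraries and -0.68 (adjusted p = 0.26) in all 8. Upward, the lectin genes clec-52 and clec-84 had log2 fold changes of 2.74 and 1.44 in 7 libraries, and the CUB-like domain genes dod-22 and irg-4 had 2.26 and 0.97. In all 8 libraries these 4 had 2.40, 1.21, 1.96 and 0.82, and replicate 3 was above the EV range for irg-4 and within it for the other 3. Falls among the antimicrobial genes numbered 6 without dimt-1 RNAi replicate 1, and falls among the lectins 6 or 7 without EV replicate 1, 2 or 3. None of the 15 pals genes tested, several of which respond to infection inside cells, was called.

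Of 299 F-box and BTB/MATH genes 7 rose and 25 fell, and the share called was 10.7% beside 15.0% of all genes. Of 95 fbxb genes 13 fell and 0 rose, and of 32 fbxc genes 9 fell and 0 rose, while of 112 fbxa genes 4 rose and 1 fell. The median log2 fold change in 7 libraries was -0.95 for fbxb, -0.93 for fbxc and 0.31 for fbxa, and in all 8 it was -0.67, -0.5002 and 0.23. The gene fbxb-66 had 1.75, 4.42 and 1.93 CPM in dimt-1 RNAi replicates 1, 2 and 4 and 7.70 CPM in replicate 3, against 6.64, 7.15, 6.76 and 7.95 CPM on EV. The gene fbxa-69 had 14.1, 12.5 and 12.6 CPM in dimt-1 RNAi replicates 1, 2 and 4 and 7.82 CPM in replicate 3, against 3.19, 8.53, 4.87 and 4.41 CPM on EV. These are genes of low level with replicate 3 inside the EV range in both. The fbxb-66 log2 fold change was -1.40 (SE 0.31, adjusted p = 0.00576) in 7 libraries and -0.85 (adjusted p = 0.317) in all 8, and that of fbxa-69 was 1.32 (SE 0.26, adjusted p = 0.00263) in 7 libraries and 1.16 (adjusted p = 0.105) in all 8. Falls in the whole group numbered 48 without dimt-1 RNAi replicate 2 and 16 without dimt-1 RNAi replicate 1 or 4 or without EV replicate 3, and rises 3 without dimt-1 RNAi replicate 1. In 7 libraries fbxc-28 and fbxa-55 had log2 fold changes of -1.27 and 1.26, and in all 8 -0.91 and 0.94. For these, replicate 3 was within the EV range for fbxc-28 and below it for fbxa-55.

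Of 32 histone genes 1 rose and 4 fell, a share called of 15.6% beside 15.0% of all genes. The linker histone gene his-24 had 114, 178 and 129 CPM in dimt-1 RNAi replicates 1, 2 and 4 and 393 CPM in replicate 3, against 342, 352, 344 and 344 CPM on EV. Replicates 1, 2 and 4 were far below the tight EV range and replicate 3 was above it. The his-24 log2 fold change was -1.30 (SE 0.11, adjusted p = 2.62e-06) in 7 libraries and -0.76 (adjusted p = 0.243) in all 8. The H3.3 gene his-72 and the H4 gene his-38, one of many near-identical copies, had log2 fold changes of -0.26 and 1.17 in 7 libraries (adjusted p = 0.0136 and 0.00182) and -0.15 and 1.02 in all 8. Falls numbered 2 without EV replicate 2, 3 or 4 and 1 without dimt-1 RNAi replicate 1.

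Of 123 neuropeptide and insulin-like peptide genes 10 rose and 2 fell, with a median of 0.30 in 7 libraries and 0.24 in all 8, and 5 of the rises were among 30 flp genes. The share called was 9.76% beside 15.0% of all genes. The rises numbered 17 without dimt-1 RNAi replicate 2, 3 without dimt-1 RNAi replicate 4, 5 without dimt-1 RNAi replicate 1 and 6 without EV replicate 2. The gene flp-8 had 25.6, 18.1 and 21.5 CPM in dimt-1 RNAi replicates 1, 2 and 4 and 11.7 CPM in replicate 3, against 11.8, 11.8, 11.9 and 13.1 CPM on EV. For flp-8 replicate 3 was below the EV range and the other 3 were above it. For flp-8 the log2 fold change was 0.83 (SE 0.15, adjusted p = 0.000997) in 7 libraries and 0.66 (adjusted p = 0.159) in all 8. The genes nlp-80 and nlp-24 had log2 fold changes of 0.79 and -0.42 in 7 libraries (adjusted p = 0.00336 and 0.00157) and 0.59 and -0.27 in all 8. The gene ins-34, whose call was lost in 6 of the 7 fits that left out a further library, had a log2 fold change of -0.74 (adjusted p = 0.0437) in 7 libraries and -0.52 in all 8, with replicate 3 within the EV range. Of 194 nuclear hormone receptors 4 rose and 7 fell, a share called of 5.67%. Leaving out dimt-1 RNAi replicate 1 gave counts of 1 and 4, and 1 rose without EV replicate 1 or 3. The genes nhr-31 and nhr-17 had log2 fold changes of 0.72 and -0.67 in 7 libraries (adjusted p = 0.00043 and 0.00303) and 0.60 and -0.48 in all 8. In 7 libraries nhr-76 and nhr-25 had log2 fold changes of 0.75 and -1.01, and in all 8 0.61 and -0.67. For both, replicates 2 and 3 were within the EV range, and the calls were lost in 5 and 6 of the 7 fits that left out a further library.

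Genes of lifespan pathways, only some of which the study examined, were mostly not called. Of 35 such genes 1 rose and 4 fell, a share close to that of all genes (15.0%). The falls numbered 1 or 2 without dimt-1 RNAi replicate 1 or 4 or without EV replicate 3 or 4. The FOXO gene daf-16, the output of insulin signalling, had 202, 211 and 204 CPM in dimt-1 RNAi replicates 1, 2 and 4 and 189 CPM in replicate 3, against 170.2, 174, 185 and 181 CPM on EV. All 4 dimt-1 RNAi libraries were above the EV range. In edgeR, daf-16 had a log2 fold change of 0.21 (SE 0.059, adjusted p = 0.0241) in 7 libraries and 0.18 (adjusted p = 0.175) in all 8. Its call was lost in 5 of the 7 fits that left out a further library. The insulin receptor gene daf-2 had 14.4, 20.8 and 21.7 CPM in dimt-1 RNAi replicates 1, 2 and 4 and 16.5 CPM in replicate 3, against 22.5, 24.5, 23.1 and 23.2 CPM on EV (log2 fold change -0.30, adjusted p = 0.193). All 4 dimt-1 RNAi libraries were below the EV libraries for daf-2, and the gene passed neither fit.

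The TOR pathway GTPase gene raga-1, the heat shock factor gene hsf-1, the ubiquinone synthesis gene clk-1, the steroid receptor gene daf-12, the Notch receptor gene glp-1 and the P granule gene pgl-1 had adjusted p of 0.471, 0.69, 0.638, 0.427, 0.894 and 0.238 in 7 libraries. None of these 6 passed the test. The steroid hormone enzyme gene daf-9 was at 0 to 0.96 CPM over the 8 libraries and hsp-16.2 at 0 to 2.42 CPM, too low to show a difference at this depth, and eat-2 was too low to be tested. The sterol enzyme gene daf-36 fell, with 6.98 ± 2.45 CPM in dimt-1 RNAi replicates 1, 2 and 4 and 9.84 CPM in replicate 3, against 12.3 ± 2.13 CPM on EV. The daf-36 log2 fold change was -0.82 (adjusted p = 0.0254) in 7 libraries and -0.67 in all 8. For daf-36 all 4 dimt-1 RNAi libraries were below the EV range, and the call was lost in 4 of the 7 fits that left out a further library. The AMPK subunit gene aakg-1 fell by 0.51 on the log2 scale (adjusted p = 0.0377), with -0.39 in all 8 libraries. For aakg-1 replicate 3 was within the EV range, and its call was lost in 5 of those 7 fits. The chaperone gene hsp-4, a marker of unfolded protein in the endoplasmic reticulum, had 234.6, 256 and 248 CPM in dimt-1 RNAi replicates 1, 2 and 4 and 334 CPM in replicate 3, against 310.5, 316, 319.7 and 324 CPM on EV. In hsp-4 replicate 3 was above the EV range and the other 3 below it. For hsp-4 the log2 fold change was -0.37 (SE 0.058, adjusted p = 0.000404) in 7 libraries and -0.25 (adjusted p = 0.241) in all 8. The mitochondrial chaperone gene hsp-6 had 265, 271 and 285 CPM in dimt-1 RNAi replicates 1, 2 and 4 and 276 CPM in replicate 3, against 306, 313, 318 and 301 CPM on EV. All 4 dimt-1 RNAi libraries were below the EV range for hsp-6, and its call was lost in 6 of the 7 fits that left out a further library. The hsp-6 log2 fold change was -0.178 (SE 0.057, adjusted p = 0.0477) in 7 libraries and -0.17 (adjusted p = 0.169) in all 8. Of 17 genes of the RNAi machinery 0 rose and 1, sid-3, fell by 0.30 on the log2 scale (adjusted p = 0.0243), with -0.19 in all 8 libraries. Its replicate 3 was within the EV range, and the call was lost in 4 of those 7 fits. Of the 17 RNAi machinery genes 5.88% were called, beside 15.0% of all genes.

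Markers of the somatic tissues were read as whole lists, since in RNA of whole worms fewer cells of a type and less RNA per cell cannot be told apart. No listed member was at 0 in all 8 libraries, so muscle, pharynx, intestine, hypodermis, neurons and the somatic gonad were all present in the lysates. Of 12 pharynx markers tested 6 rose and 1 fell, a share called of 58.3% beside 15.0% of all genes. The summed level of all 14 listed was 1063, 864 and 1152 CPM in dimt-1 RNAi replicates 1, 2 and 4. It was 774 CPM in replicate 3, against 813, 810.3, 818 and 793 CPM on EV. The pharyngeal myosin gene myo-1 had 133, 93.6 and 136 CPM in dimt-1 RNAi replicates 1, 2 and 4 and 71.3 CPM in replicate 3, against 68.9, 65.8, 75.8 and 78.7 CPM on EV. The factor pha-4, which specifies the pharynx and is also used in other tissues, had 10.5, 14.5 and 11.1 CPM in dimt-1 RNAi replicates 1, 2 and 4 and 18.2 CPM in replicate 3, against 21.2, 23.9, 25.2 and 27.2 CPM on EV. Replicate 3 was within the EV range for myo-1 and below it for pha-4. For myo-1 the log2 fold change was 0.74 (SE 0.11, adjusted p = 0.000226) in 7 libraries and 0.59 (adjusted p = 0.144) in all 8, and that of pha-4 was -1.02 (SE 0.15, adjusted p = 0.000235) in 7 libraries and -0.84 (adjusted p = 0.0929) in all 8. The toxin-domain gene phat-4 had a log2 fold change of 0.78 in 7 libraries (adjusted p = 0.00502) and 0.65 in all 8.

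Of 15 intestine markers 2 rose and 5 fell, and their summed level was 2508, 2477 and 3047 CPM in dimt-1 RNAi replicates 1, 2 and 4 and 3329.9 CPM in replicate 3, against 3259, 3532, 3255 and 3118 CPM on EV. The intermediate filament genes ifc-2 and ifb-2 were the 2 that rose, with log2 fold changes of 0.68 and 0.41 in 7 libraries and 0.54 and 0.33 in all 8, while cpr-1 and ges-1 were among those that fell. The intestinal sum, like that of the vitellogenins, which the intestine makes, was below the EV range in replicates 1, 2 and 4 and within it in replicate 3. The intestine list as a whole did not shift, with a median of -0.015 in 7 libraries and 7 of 15 members higher. The share called was 46.7%, beside 15.0% of all genes. Of 16 body wall muscle markers 4 rose and 0 fell, with 8 rises without dimt-1 RNAi replicate 2 and 0 or 1 without any other of the 7. Their sum was 9529.7 ± 1419 CPM in dimt-1 RNAi replicates 1, 2 and 4 and 9044 CPM in replicate 3, against 8685 ± 429 CPM on EV. Among them were unc-89 with a log2 fold change of 0.33 and myo-3 with 0.34 (adjusted p = 0.00786 and 0.041), and 0.26 and 0.28 in all 8. The myo-3 call was lost in 6 of the 7 fits that left out a further library. Of 13 hypodermis markers 1 rose (col-10, 1.04) and 3 fell, among them elt-1 (-0.60) and nhr-25. The share called was 30.8%, beside 15.0% of all genes. Of the 13, 9 were higher, with a median of 0.20 in 7 libraries and 0.13 in all 8. The hypodermis sum was 2666 ± 338 CPM in dimt-1 RNAi replicates 1, 2 and 4. It was 2377 CPM in replicate 3, against 2320 ± 66.2 CPM on EV. Of 20 neuron markers none was called, with a median of 0.23, and of 10 sheath and spermatheca markers 1, nmy-1, rose by 0.27, a call lost in 5 of those fits. Among these markers replicate 3 was within the EV range for ifc-2, ifb-2, unc-89, myo-3, col-10, elt-1 and nmy-1. The shifts of the sperm, embryo, collagen and vitellogenin lists were in dimt-1 RNAi replicates 1, 2 and 4, and the medians of replicate 3 over the EV mean lay between -0.11 and 0.10 for these lists. The part that differences in stage or tissue make-up between the lysates have in any one of these results was not tested.

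In a subset of genes all 4 dimt-1 RNAi libraries, replicate 3 included, lay outside the EV range on the same side. Among 8928 genes of at least 5 CPM there were 647 (7.25%), 278 of them higher (3.11%) and 369 lower (4.13%). The 5 smallest p-values in each direction all had an adjusted p of 0.0929 in edgeR on all 8 libraries, short of the threshold. These genes were chosen for that position, so replicate 3 lying outside the EV range is part of the choice and not a finding. On the same 8 libraries DESeq2, voom with quality weights, and edgeR with no filter on low counts each called all 10. Among the lower genes, cand-1, a regulator of cullin ubiquitin ligases, had 73.7, 84.9 and 84.9 CPM in dimt-1 RNAi replicates 1, 2 and 4 and 81.5 CPM in replicate 3, against 101, 106, 109 and 107 CPM on EV. The translation initiation factor subunit gene eif-3.H had 55.8, 57.2 and 62.1 CPM in dimt-1 RNAi replicates 1, 2 and 4 and 58.8 CPM in replicate 3, against 75.5, 75.7, 77.1 and 74.6 CPM on EV. In cand-1 and eif-3.H, replicate 3 was in the midst of the other dimt-1 RNAi libraries. For cand-1 the log2 fold change was -0.39 (SE 0.071, adjusted p = 0.00152) in 7 libraries and -0.38 (adjusted p = 0.0929) in all 8, and that of eif-3.H was -0.38 (SE 0.072, adjusted p = 0.00188) in 7 libraries and -0.37 (adjusted p = 0.0929) in all 8.

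The gut esterase gene ges-1 had 7.34, 8.18 and 10.3 CPM in dimt-1 RNAi replicates 1, 2 and 4 and 10.9 CPM in replicate 3, against 16.9, 15.7, 16.04 and 16.9 CPM on EV. The intramembrane protease gene imp-2 had 118, 128 and 113 CPM in dimt-1 RNAi replicates 1, 2 and 4 and 125 CPM in replicate 3, against 148, 155, 161 and 155 CPM on EV. For both, the gap between the groups exceeded the range within either. The ges-1 log2 fold change was -0.93 (SE 0.16, adjusted p = 0.000954) in 7 libraries and -0.835 (adjusted p = 0.0929) in all 8, and that of imp-2 was -0.37 (SE 0.065, adjusted p = 0.000973) in 7 libraries and -0.35 (adjusted p = 0.0929) in all 8. The gene gfi-1, annotated with ET modules, had 9.48, 10.8 and 9.77 CPM in dimt-1 RNAi replicates 1, 2 and 4 and 10.8 CPM in replicate 3, against 16.5, 16.6, 19.5 and 14.8 CPM on EV. In gfi-1 replicate 3 was below every EV library, again by the choice of genes. For gfi-1 the log2 fold change was -0.75 (SE 0.15, adjusted p = 0.00313) in 7 libraries and -0.72 (adjusted p = 0.0929) in all 8.

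Among the 5 higher genes replicate 3 was the lowest of its group each time. A pseudogene of chromosome IV, WBGene00019932, had 36.5, 29.7 and 35.9 CPM in dimt-1 RNAi replicates 1, 2 and 4 and 25.4 CPM in replicate 3, against 14.9, 17.6, 17.9 and 20.04 CPM on EV. A major sperm protein gene outside the numbered msp family, F53B6.4, had 15.8, 12.1 and 26.6 CPM in dimt-1 RNAi replicates 1, 2 and 4 and 7.87 CPM in replicate 3, against 5.20, 4.60, 4.04 and 3.49 CPM on EV. In both, replicate 3 was above every EV library, as the choice of genes required. For WBGene00019932 the log2 fold change was 0.95 (SE 0.13, adjusted p = 0.000109) in 7 libraries and 0.85 (adjusted p = 0.0929) in all 8, and that of F53B6.4 was 2.06 (SE 0.24, adjusted p = 2.86e-05) in 7 libraries and 1.85 (adjusted p = 0.0929) in all 8. The collagen gene col-180 had 17.5, 10.01 and 21.9 CPM in dimt-1 RNAi replicates 1, 2 and 4 and 1.95 CPM in replicate 3, against 1.70, 1.72, 1.15 and 1.54 CPM on EV. For col-180 replicate 3 cleared the EV range by a small margin, and for the pseudogene by a wider one. The col-180 log2 fold change was 3.43 (SE 0.27, adjusted p = 1.32e-06) in 7 libraries and 3.07 (adjusted p = 0.0929) in all 8. The genes Y47D7A.13 and F49C12.15 completed the set, with 3.49 and 6.38 CPM in replicate 3, against EV means of 1.12 and 4.22 CPM.

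**Figure D4:**
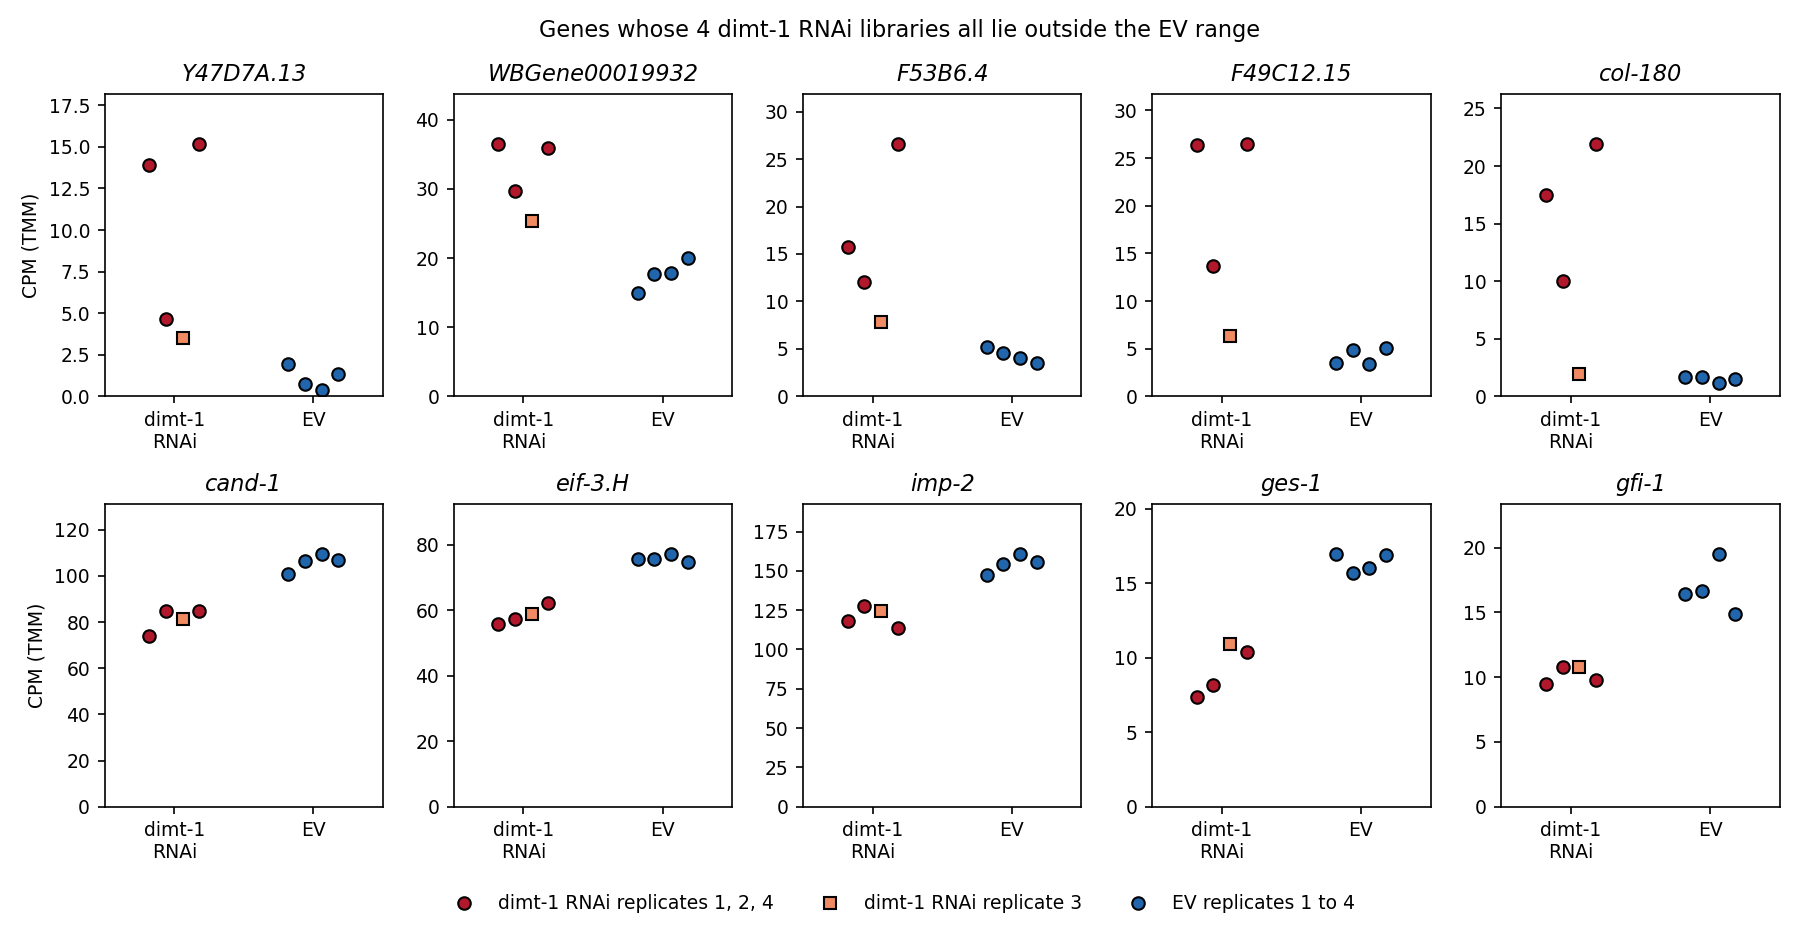
CPM of the 5 higher (top) and 5 lower (bottom) genes with the smallest p-values among those whose 4 dimt-1 RNAi libraries all lie outside the EV range; dimt-1 RNAi is left of EV, replicate 3 is the orange square, and each vertical axis starts at 0. In the bottom row the square lies among or beside the red circles, as for cand-1 at 81.5 CPM, and in the top row it is the lowest point of its group, as for col-180 at 1.95 CPM.

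By chromosome, the share of genes that rose was 10.9% on IV, 8.99% on I, 6.43% on II, 6.37% on V, 5.25% on III and 3.26% on X, beside 6.99% over all genes. The X chromosome had the highest share of falls, 251 of 2211 genes (11.4%), and 72 rises. On the other 5 nuclear chromosomes 6.60 to 8.92% fell. The X chromosome carries 5 of the 6 vitellogenin genes, which made up 5 of its 251 falls, and few sperm genes lie on it in C. elegans. The part of the sperm genes in these shares was not tested.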

How the data were processed

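The authors deposited raw counts per gene, with no normalization. The processing notes name STAR 2.7.2b; the annotation, the strand setting and the treatment of multiply mapped reads of these libraries are not given in the sources used here. In the 8 total RNA libraries 83.6 to 87.1% of counts from 1 to 20 were even numbers, which a count of both mates of each fragment would give. Columns were assigned by library name, and 0 per-sample columns lacked a label. Of 46748 identifiers 43693 had a symbol in the reference tables, and those without one took 1.38 to 2.14% of the counts. Any 2 total RNA libraries differed in at least 17598 genes, so none was merged.

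The 2 groups were fitted in edgeR 4.0.16 (R 4.3.3; filterByExpr, TMM, glmQLFit, glmQLFTest), with Benjamini-Hochberg adjustment over all genes tested and a threshold of 0.05, in all 8 libraries and without dimt-1 RNAi replicate 3, with no replicate block. The steps were tested on simulated data. CPM values use 1 TMM scale over the 8 libraries. Labels call the libraries biological replicates, and p-values measure the spread between them.

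The comparison, lists and rules were chosen with earlier results of these data known. Named genes are E02H1.1, the 12 largest rises and falls in 7 libraries (called, at least 5 CPM, groups not overlapping, at most 2 per family), the 5 smallest p-values per direction in 8 libraries with groups apart, up to 2 called members per list and direction, and genes the study examined by mutant or reporter. The limit of 5 CPM is on the mean over all 8 libraries. Lists, by gene name, are described by counts and medians. Summed levels take in every listed gene of the count table, tested or not. Alternatives were DESeq2 1.42.0 and its size factors, limma 3.58.1 voom with quality weights, no filter, at least 10 counts in every library, counts divided by 2, a block for the replicate number, and each library left out in turn. Promoter windows and coding sequences come from the WBcel235 RefSeq genome with the Ensembl annotation.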

Additional observations from a re-analysis of the deposited data

Results flagged for a closer look

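Among 346 values per group of 4 (levels of named genes, summed levels of lists and library measures), 15 had 1 library whose gap to its nearest neighbour took up more of the group's range than Dixon's 95% critical value allows, where chance gives about 1 in 20 groups. Dimt-1 RNAi replicate 3 was the library in 4 of them: E02H9.7 at 8.14 CPM (2.04 to 2.38 in the other 3 dimt-1 RNAi libraries), glh-2 at 159.5 CPM (127 to 128), gars-1 at 154.8 CPM (102 to 109.6) and ugt-60 at 7.77 CPM (3.25 to 3.81). Dimt-1 RNAi replicate 4 had a summed germ granule level of 4527 CPM (4571 to 4580.2).

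EV replicate 2 was the library in 7. Its 10 top genes took 7.01% of its counts (6.46 to 6.53% in the other EV libraries), and it had 6229 CPM of vit-4 (5346 to 5459), 49001 CPM of all vitellogenins (42137 to 42956), 25286 CPM of translation factors (23672 to 23846), 633.8 CPM of acdh-1 (593.7 to 594.8), 324.7 CPM of pas-2 (280.1 to 282.9) and 7.87 CPM of msrp-2 (12.5 to 13.3). EV replicate 1 had 3.24 CPM of col-146 (0.666 to 0.949). EV replicate 4 had 13.1 CPM of flp-8 (11.8 to 11.9) and 101.3 CPM of ifc-2 (112.6 to 113.4).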

How the results depend on the processing

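In all 8 libraries the count of 0 calls became 647 with DESeq2 (484 higher, 163 lower), 346 with no filter on low counts (287 higher, 59 lower) and 1601 with voom quality weights (690 higher, 911 lower). It stayed at 0 with DESeq2's size factors, with at least 10 counts in every library and with counts divided by 2, and leaving out 1 library gave 0 to 2379, the last without dimt-1 RNAi replicate 3. In 7 libraries the 2379 calls became 2372 to 3055 under the 6 alternatives other than the block, and 1245 to 2742 when a further library was left out, the lowest without dimt-1 RNAi replicate 1. E02H1.1 in all 8 libraries passed the threshold with voom quality weights at -0.44, and leaving out 1 library gave -0.45 to -0.24 (7 libraries: -0.54 to -0.39). Of 122 named genes called in 7 libraries, 95 kept the call in every fit that left out a library and 99 in every other alternative. The direction of uncalled values near 0 reversed for fib-1 in 7 libraries, at 0.0086 with at least 10 counts in every library and 0.0076 with voom quality weights; leaving out 1 library gave -0.053 to 0.0204 for fib-1 and -0.0198 to 0.061 for glp-1 in 7 libraries, and -0.037 to 0.045 and -0.025 to 0.039 in all 8. The cause of each change was not tested.

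The replicate numbers share no source in the labels, and deviations of same-numbered libraries correlated at 0.060, -0.0090, 0.018 and -0.011, with 1 of 4 numbers best matched to itself. With a replicate block edgeR called 1 gene in all 8 libraries and 1369 in 7 (636 higher, 733 lower).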
